A study of Homo sapiens with 36 samples.

Results

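The genes described here are the 10 rows of the mRNA count table named NFE2L2, KEAP1, NQO1, GCLC, GCLM, GSR, TXNRD1, SRXN1, SLC7A11 and OSGIN1, out of 60591 genes in that table, chosen by symbol and followed across 6 groups of 3 libraries. Caco-2 and HT-29, 2 cell lines established from human colorectal tumours, gave 3 groups each. Caco-2 cells had been left to differentiate for 21 days (dCaco-2 in the study), whereas no differentiation is given for HT-29, so cell line and culture state cannot be told apart. Cells of each line were treated for 24 h with 300 µM cobalt(II) chloride (CoCl2), with 5 µM of an oxyquinoline derivative (OD), or were left as control. Both agents inhibit the prolyl hydroxylases that label hypoxia-inducible factor for destruction, and the study used them to imitate hypoxia at normal oxygen. The control and OD media held 0.5 µl per ml of dimethyl sulfoxide per the labels, which give water for the CoCl2 stock, while the study's methods put the solvent in the CoCl2 medium as well and state a higher solvent concentration than these labels, so a solvent difference in the CoCl2 comparison was not tested. Each line is a single established tumour line, and the 3 replicates are described as biological without a statement of separate passages, so the FDR values measure the spread between these cultures.

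NFE2L2 encodes NRF2, a transcription factor that KEAP1 holds in the cytoplasm and passes to a ubiquitin ligase. When reactive cysteines of KEAP1 are modified by oxidants, electrophiles or metals, NRF2 escapes degradation, enters the nucleus with a small MAF partner and binds antioxidant response elements near its target genes. The targets include genes of glutathione synthesis and recycling (SLC7A11, GCLC, GCLM, GSR), of the thioredoxin system (TXNRD1, SRXN1), the quinone reductase NQO1 and OSGIN1, a growth inhibitor induced by oxidative stress. NRF2 is controlled mainly at the level of its protein, which mRNA counts do not measure.

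The promoter sequences below show how the letters of the antioxidant response element lie in front of 3 of the members that responded strongly. The element was searched as TGACNNNGC and, separately, as TGAGNNNGC, on both strands of the 300 bases from 250 before to 50 after each start in the RefSeq promoter table of GRCh38.p14. Of the 10 members, 8 had an entry, with 11 promoters, and GSR and SLC7A11 had none. At least 1 match was found in 7 of these promoters, belonging to 6 members, and 29.1% of all 35116 promoters of the table held a match to either form (13.3% to TGACNNNGC and 18.3% to TGAGNNNGC). For 3 members the 250 bases before the start are given 5′ to 3′ on the strand of the gene, with the matches in capitals.
GCLM, chr1:93909431-93909680, minus strand: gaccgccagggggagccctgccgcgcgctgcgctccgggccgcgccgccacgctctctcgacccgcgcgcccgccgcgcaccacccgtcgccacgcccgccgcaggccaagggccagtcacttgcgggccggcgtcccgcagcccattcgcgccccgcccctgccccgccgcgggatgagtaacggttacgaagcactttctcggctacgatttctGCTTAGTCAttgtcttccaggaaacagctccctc
TXNRD1, chr12:104215529-104215778, plus strand: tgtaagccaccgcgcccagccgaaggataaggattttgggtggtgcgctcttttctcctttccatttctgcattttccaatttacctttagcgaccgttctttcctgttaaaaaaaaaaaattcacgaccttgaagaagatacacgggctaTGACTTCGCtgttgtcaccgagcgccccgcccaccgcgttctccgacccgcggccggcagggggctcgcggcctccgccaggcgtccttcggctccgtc
OSGIN1, chr16:83952990-83953239, plus strand: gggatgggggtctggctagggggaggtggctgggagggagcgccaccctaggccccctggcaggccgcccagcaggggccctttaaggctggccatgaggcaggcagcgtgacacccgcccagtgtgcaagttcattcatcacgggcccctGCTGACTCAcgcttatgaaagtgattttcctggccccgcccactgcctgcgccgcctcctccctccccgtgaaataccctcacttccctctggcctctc
The printed GCLM match reads TGACTAAGC on the strand opposite to the gene and lies 34 to 26 bases before the start. The searched window of GCLM held 1 match to each form, and the TGAGNNNGC match is not wholly within the printed bases. The same 9 letters, TGACTAAGC, stand 31 to 23 bases before a start of KEAP1 (chr19:10502722-10503021, minus strand), also on the opposite strand, and that KEAP1 window held 3 matches in all. In TXNRD1 the match TGACTTCGC lies 99 to 91 bases before the start at chr12:104215779. That searched window held 2 matches to TGACNNNGC, and the other is not wholly within the printed bases. A second RefSeq start of this gene has TGACAAAGC 102 to 94 and TGAGCAGGC 198 to 190 bases ahead of it. The OSGIN1 match, 99 to 91 bases before the start, has the second form, TGAGTCAGC. The windows of GCLC and SRXN1 held neither form. These matches describe letters in fixed windows, and no binding was measured.

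The 18 mRNA libraries held 12925719 to 22332639 counts each. Levels are given as CPM, the counts of a gene per 1000000 counts of the library after scaling of library sizes within each line with edgeR's TMM factors. A gene was called when the false discovery rate (FDR) over all genes tested was under 0.05 and the absolute log2 fold change over 1. All 5 intestinal epithelial markers examined were detected in every group, and 8 enterocyte markers summed to 3730 to 5310 CPM in Caco-2 and to 144 to 213 CPM in HT-29, where APOA4 was at 0 in control and with OD. Within Caco-2 the enterocyte sum was 4690 to 5310 CPM with CoCl2 and 3730 to 4130 CPM in control, with mean APOA1 at 3720 and 2550 CPM, APOA4 at 61.2 and 13.1 CPM and DPP4 at 837 and 817 CPM. The other 5 enterocyte markers had lower means with CoCl2 than in control, among them SI (115 and 289 CPM) and FABP1 (132 and 222 CPM). Of the epithelial markers, VIL1 had a lower mean with CoCl2 (443 and 796 CPM). EPCAM (1370 and 804 CPM), CDH1 (2050 and 1450 CPM), CDX2 (292 and 154 CPM) and KRT20 (9.09 and 5.53 CPM) had higher means with CoCl2. The 4 fibroblast, 3 endothelial and 4 immune markers summed to at most 35.4, 12.5 and 5.77 CPM in any library, with COL1A2, CDH5 and, in control, PDGFRA and CD3E among those at 0 in HT-29. Mitochondrial counts made up on average 6.52% of a Caco-2 control library, 5.22% after CoCl2 and 4.63% after OD, whereas the HT-29 averages were 7.17%, 8.09% and 6.13%. The part of these differences in the results was not tested. In these bulk cultures, a change in the share of cells that express a gene and a change in RNA per cell cannot be told apart.

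SRXN1 passed the filter on low counts in HT-29 through its CoCl2 libraries alone, and did not pass it in Caco-2, so its test was not independent of its level and the counts given here are over the other 9 members. CoCl2 raised 8 of these 9 in Caco-2 and 7 in HT-29. The background of called and higher genes was 9.13% of 16034 genes tested in Caco-2 and 17.4% of 15812 in HT-29. OD raised 1 of the 9 in Caco-2, OSGIN1, against a background of 4.43%, and 5 in HT-29, against 9.5%. Every member call in these 4 comparisons was in the upward direction. The FDR threshold alone, at any fold, was passed in Caco-2 by all 9 members for CoCl2 (64.7% of genes) and by 8 of 9 for OD (50.4%), and in HT-29 by all 9 for both agents (CoCl2 82.8% and OD 68.8% of genes). In Caco-2 these members had a median log2 fold change of 1.62 after CoCl2 and 0.59 after OD, whereas all genes had -0.03 and -0.02. Their HT-29 medians were 2.56 and 1.32, whereas all genes had -0.03 and 0.01. CoCl2 and OD were compared with the same control libraries in each line.

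**Figure D1:**
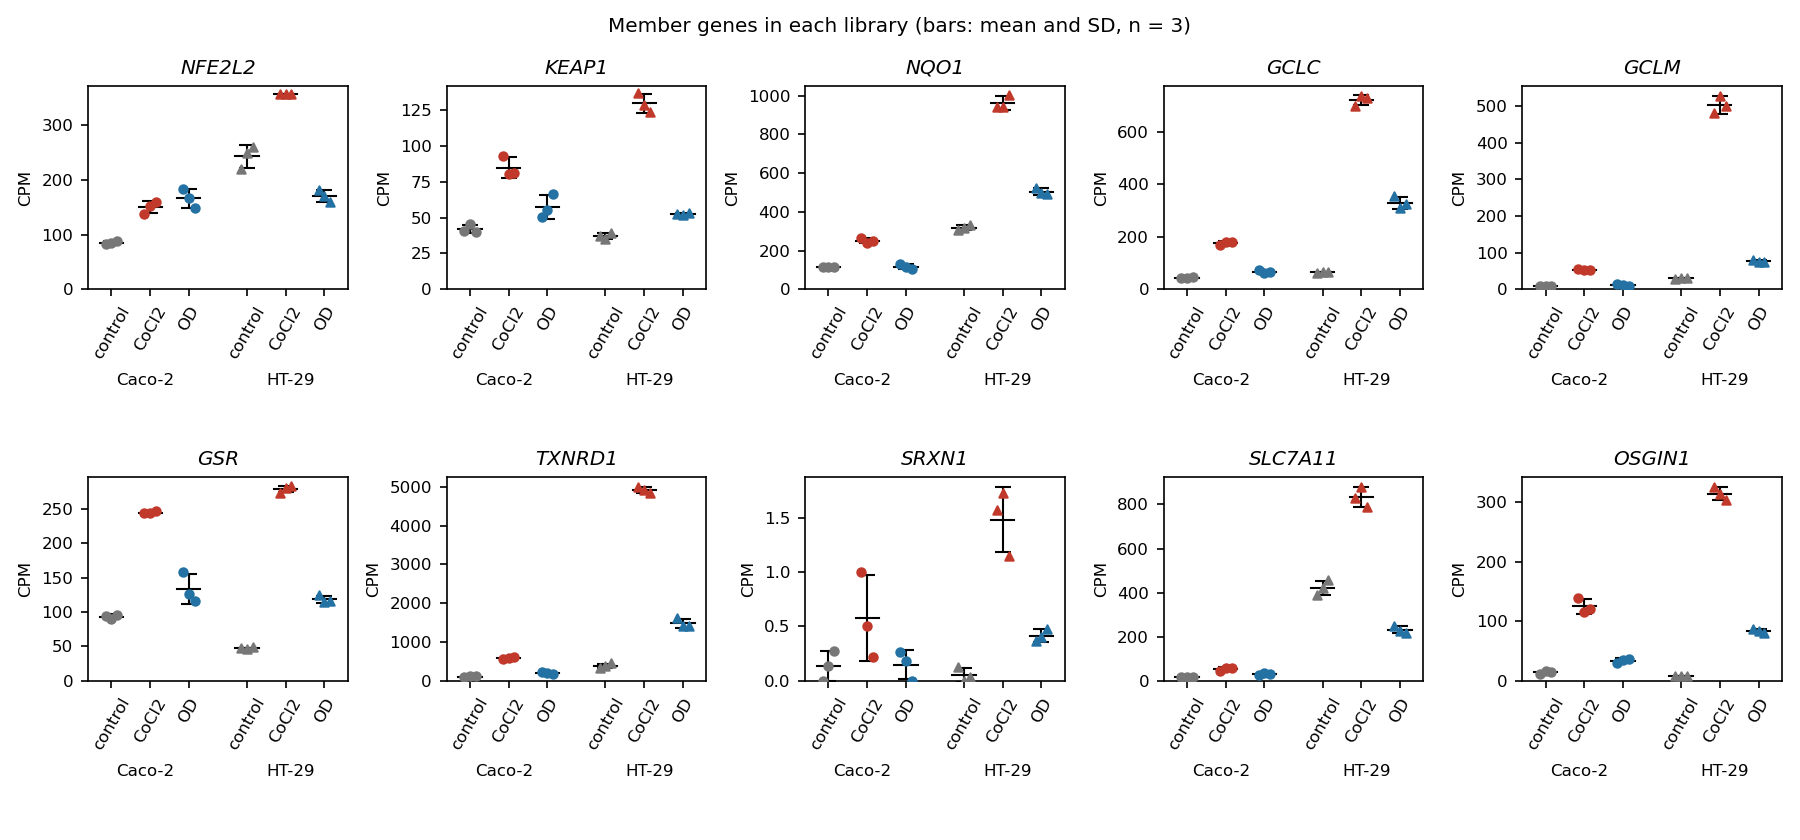
Level of each member (vertical axis, CPM, linear from 0, own scale in each panel) in the 18 libraries, by group; points are single libraries, and the bars give the mean and SD of 3. TXNRD1 lies at 4853 to 4999 CPM in HT-29 with CoCl2 and at 337.4 to 450.0 CPM in the HT-29 controls, whereas SLC7A11 and NFE2L2 are below their HT-29 controls with OD.

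The pair that sets the pathway, NFE2L2 and KEAP1, was considered first. NFE2L2 (ENSG00000116044, chr2:177218667-177392756 in GENCODE v44) stood at 82.4, 85.0 and 87.9 CPM in Caco-2 control, at 138.5, 152.0 and 160.4 CPM with CoCl2 and at 183.7, 167.8 and 149.2 CPM with OD. Every treated library was above every control, and groups did not overlap for 69% (CoCl2) and 59.4% (OD) of the genes tested in Caco-2. The log2 differences were 0.82 (SE 0.08, FDR = 5.42e-09) and 0.97 (SE 0.08, FDR = 8.25e-10), both under the fold limit. Without OD replicate 3 the OD value was 1.05 and NFE2L2 was called. In HT-29 the control libraries held 219.8, 249.1 and 260.9 CPM, the CoCl2 libraries 357.7, 358.2 and 356.6 CPM and the OD libraries 182.6, 170.3 and 159.3 CPM. NFE2L2 mRNA was thus above control with CoCl2 and below control with OD in this line, with no overlap in either case. Of the genes tested in HT-29, 83.2% (CoCl2) and 71.1% (OD) had no overlap with control. The log2 differences were 0.55 (SE 0.06, FDR = 7.84e-10) and -0.51 (SE 0.06, FDR = 8.61e-09). With library size as the only scaling, the CoCl2 value was -0.08 (FDR = 0.165), under a scaling that moved the median of all genes by -0.63. Of the exonic bases of NFE2L2, 23.4% are shared with HNRNPA3 on the opposite strand and 13.6% with a long noncoding RNA gene on the same strand. The study prepared stranded libraries, but the use of strand in counting is not given in the sources used here. HNRNPA3, an RNA-binding protein gene named for this overlap after its values were seen, had log2 differences in Caco-2 of 0.14 (CoCl2) and -0.57 (OD), and in HT-29 of -0.22 and -0.295. Its part in the NFE2L2 values was not tested.

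KEAP1 (ENSG00000079999, chr19:10486125-10503558) encodes the repressor that hands NRF2 to degradation. It stood at 40.8, 45.3 and 40.0 CPM in Caco-2 control and at 93.2, 80.1 and 81.4 CPM with CoCl2, a 2.02-fold rise (log2 1.01, SE 0.10, FDR = 2.06e-09). That call lies at the fold limit and was lost without control replicate 1, control replicate 3 or CoCl2 replicate 1 (log2 0.99, 0.98 and 0.95), and with library size as the only scaling (0.69). With OD the Caco-2 libraries held 50.7, 55.2 and 66.5 CPM, all above control, at a log2 difference of 0.45 (FDR = 0.00046). In HT-29, KEAP1 went from 36.9, 35.0 and 39.5 CPM to 136.7, 128.3 and 123.9 CPM with CoCl2, a 3.48-fold rise (log2 1.80, SE 0.05, FDR = 5.29e-21). OD gave 52.8, 52.0 and 53.0 CPM there, a log2 difference of 0.50 (FDR = 1.92e-08). The groups did not overlap in any of the 4 comparisons of KEAP1 with control, a property of 69% (CoCl2) and 59.4% (OD) of the genes tested in Caco-2 and, in the same order, of 83.2% and 71.1% of those in HT-29.

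The count ratio of NFE2L2 to KEAP1 within a library needs no scaling between libraries. In HT-29 it was 5.95, 7.11 and 6.60 in control, 2.62, 2.79 and 2.88 with CoCl2 and 3.46, 3.28 and 3.01 with OD. Both agents thus left less NFE2L2 mRNA per KEAP1 mRNA in HT-29. The log2 ratio changed by -1.25 with CoCl2 and by -1.01 with OD (exact permutation test, two-sided, p = 0.1 for each, which is the smallest p that 3 against 3 libraries allow). In Caco-2 the ratio was 2.02, 1.88 and 2.20 in control and 3.62, 3.04 and 2.24 with OD, a log2 change of 0.52 (exact permutation p = 0.1). CoCl2 libraries of Caco-2 held ratios of 1.49, 1.90 and 1.97, overlapping control, at a log2 change of -0.20 (exact permutation p = 0.3), which was -0.07 without CoCl2 replicate 1.

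Glutathione is made from cysteine, glutamate and glycine, and glutamate-cysteine ligase carries out the rate-limiting step. GCLC (ENSG00000001084, chr6:53497341-53616970) is its catalytic subunit. Long noncoding RNA genes share 6.14% of its exonic bases on the same strand and 3.54% on the opposite strand, and their part in the counts was not tested. GCLC rose in Caco-2 from 43.4, 43.7 and 46.1 CPM to 167.1, 181.7 and 180.6 CPM with CoCl2, 3.98-fold (log2 1.99, SE 0.08, FDR = 1.98e-16). With OD it held 72.7, 63.2 and 64.9 CPM, above all controls and under the fold limit (log2 0.59, FDR = 1.47e-06). In HT-29 control, GCLC stood at 62.7, 65.3 and 66.6 CPM. It reached 699.6, 735.2 and 727.9 CPM with CoCl2, an 11.1-fold rise (log2 3.47, SE 0.06, FDR = 4.45e-27), and 355.7, 309.8 and 324.4 CPM with OD, a 5.08-fold rise (log2 2.35, SE 0.05, FDR = 1.08e-22).

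GCLM (ENSG00000023909, chr1:93885199-93909456), the modifier subunit that improves the ligase's affinity for its substrate, is the gene whose promoter is printed above with TGACTAAGC. Caco-2 cells went from 9.31, 8.79 and 8.24 CPM to 54.1, 52.0 and 53.6 CPM with CoCl2, a 6.05-fold rise (log2 2.60, SE 0.11, FDR = 8.77e-16). OD libraries held 13.5, 12.3 and 10.2 CPM (log2 0.45, SE 0.12, FDR = 0.00415), above the controls by less than the fold limit. In HT-29 GCLM rose from 28.5, 29.9 and 31.0 CPM to 481.3, 528.1 and 499.1 CPM with CoCl2, 16.8-fold (log2 4.07, SE 0.06, FDR = 6.49e-28). With OD it rose to 80.9, 75.8 and 73.7 CPM, 2.57-fold (log2 1.36, SE 0.06, FDR = 4.3e-17).

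The subunits therefore moved by different amounts. In HT-29 the count ratio of GCLM to GCLC was 0.455, 0.458 and 0.465 in control, 0.688, 0.718 and 0.686 with CoCl2 and 0.227, 0.245 and 0.227 with OD. CoCl2 raised the modifier more than the catalytic subunit and OD did the reverse, with no overlap between the 3 groups. The log2 ratio changed by 0.60 with CoCl2 and by -0.98 with OD (exact permutation test, two-sided, p = 0.1 each, the smallest possible). In Caco-2 the ratio was 0.215, 0.202 and 0.179 in control, 0.324, 0.287 and 0.297 with CoCl2 and 0.185, 0.195 and 0.157 with OD. The CoCl2 change was 0.61 on the log2 scale (exact permutation p = 0.1) and the OD change -0.15 (exact permutation p = 0.3), the OD libraries overlapping control. The OD change was -0.06 without OD replicate 3 and -0.09 without control replicate 1.

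**Figure D2:**
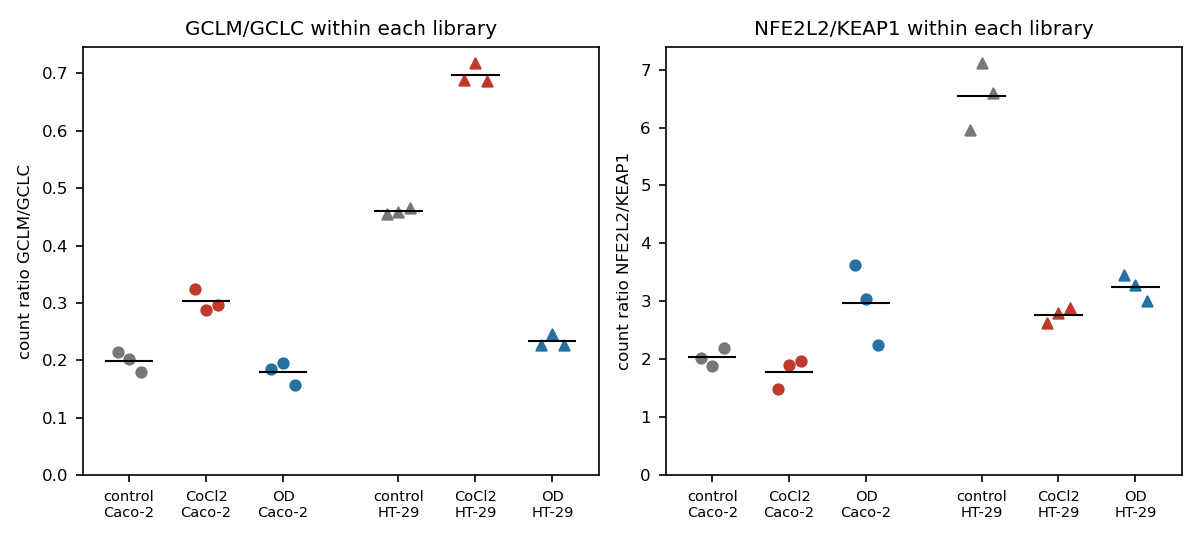
Count ratios of GCLM to GCLC (left) and of NFE2L2 to KEAP1 (right) in each library, by group, on linear axes from 0; points are libraries and lines are means of 3. In HT-29 the GCLM to GCLC ratio is 0.686 to 0.718 with CoCl2, 0.227 to 0.245 with OD and 0.455 to 0.465 in control, and the NFE2L2 to KEAP1 ratio is highest in control.

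SLC7A11 (ENSG00000151012, chr4:138164097-138242349) encodes the transport subunit of system xc-, which brings in cystine in exchange for glutamate. In Caco-2 it rose from 18.6, 15.4 and 19.2 CPM to 44.7, 59.4 and 58.8 CPM with CoCl2, 3.07-fold (log2 1.62, SE 0.13, FDR = 1.01e-10). OD libraries of Caco-2 held 24.8, 36.3 and 31.9 CPM (log2 0.81, SE 0.13, FDR = 1.86e-05). In HT-29 the controls held 390.6, 420.2 and 455.2 CPM, and CoCl2 gave 827.7, 879.3 and 789.7 CPM, a log2 difference of 0.98 (SE 0.06, FDR = 5.71e-15) just under the fold limit. Without control replicate 3 or CoCl2 replicate 3 it was 1.03 or 1.02, and SLC7A11 was then called. OD libraries of HT-29 held 250.7, 226.7 and 219.2 CPM, all under control, at a log2 difference of -0.86 (SE 0.06, FDR = 3.57e-13). SLC7A11 and NFE2L2 were the members whose OD libraries lay below control in HT-29. SLC7A11 shares 8.97% of its exonic bases with SLC7A11-AS1 on the opposite strand. That antisense RNA, named here because of the overlap, was called higher in HT-29 with both agents (log2 3.17 for CoCl2 and 1.08 for OD). It held 7.81, 7.05 and 5.82 CPM in HT-29 control and 17.3, 13.3 and 12.2 CPM with OD. In Caco-2 it was also called higher, at 3.41 (SE 0.36) for CoCl2 and 1.33 (SE 0.44) for OD. These values rest on 7, 6 and 3 counts in control, 40, 51 and 75 with CoCl2 and 18, 11 and 11 with OD. The antisense RNA passed the filter on low counts there through its treated libraries. Its share in the SLC7A11 counts was not tested.

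GSR (ENSG00000104687), on chromosome 8, encodes glutathione reductase, which regenerates reduced glutathione with NADPH. It rose in Caco-2 from 94.0, 89.8 and 96.4 CPM to 243.5, 244.2 and 246.5 CPM with CoCl2, 2.62-fold (log2 1.39, SE 0.09, FDR = 1.4e-12). OD libraries held 157.8, 126.5 and 116.4 CPM, above control and under the fold limit (log2 0.52, FDR = 3.31e-05). In HT-29 GSR rose from 47.2, 46.5 and 48.5 CPM to 273.7, 280.6 and 282.9 CPM with CoCl2, 5.88-fold (log2 2.56, SE 0.05, FDR = 6.4e-25), and to 124.4, 114.7 and 116.7 CPM with OD, 2.50-fold (log2 1.32, SE 0.05, FDR = 5.61e-18).

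In the thioredoxin system, TXNRD1 (ENSG00000198431, chr12:104215779-104350307) encodes the cytosolic selenoprotein that reduces thioredoxin. Its Caco-2 level rose from 107.5, 113.9 and 111.7 CPM to 565.2, 601.3 and 625.9 CPM with CoCl2, 5.38-fold (log2 2.43, SE 0.08, FDR = 6.93e-18). With OD it held 223.8, 190.5 and 183.5 CPM, a log2 difference of 0.84 (SE 0.08, FDR = 4.91e-09). In HT-29 TXNRD1 went from 337.4, 371.7 and 450.0 CPM to 4999, 4910 and 4853 CPM with CoCl2, a 12.7-fold rise (log2 3.67, SE 0.07, FDR = 7.55e-25). OD took it to 1621, 1401 and 1425 CPM, 3.83-fold over control (log2 1.94, SE 0.07, FDR = 1.12e-18).

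SRXN1 (ENSG00000271303, chr20:646615-653200), which encodes the sulfiredoxin that repairs overoxidised peroxiredoxins, had the fewest counts of all members, from 0 to 25 in a library. In GENCODE v44, 2292 of its 2528 exonic bases (90.7%) also belong to a readthrough gene on the same strand (ENSG00000270299), which leaves 236 bases of its own, so its counts may cover only part of the transcript's reads and its level is uncertain. The HT-29 controls held 2, 0 and 1 counts, the CoCl2 libraries 21, 25 and 14, and the OD libraries 7, 7 and 9. Summed over libraries, the ratio to control per scaled count was 30.2 (95% counting interval 9.86 to 151) with CoCl2 and 8.38 (2.53 to 43.6) with OD. Every treated library held more counts than any control. Since the gene entered the HT-29 fit only through its CoCl2 libraries, no test is given for it there. In Caco-2 the gene did not pass the filter on low counts. Its libraries held 0, 2 and 4 counts in control, 12, 7 and 4 with CoCl2 and 4, 3 and 0 with OD, and all groups overlapped. The pooled ratios there were 4.03 (1.6 to 12.1) and 1.19 (0.342 to 4.28). These intervals cover counting error only.

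NQO1 (ENSG00000181019, chr16:69706996-69726668) encodes a reductase that takes quinones straight to hydroquinones and is widely used as a readout of NRF2. In Caco-2 it rose from 115.0, 117.2 and 117.0 CPM to 267.3, 239.4 and 247.2 CPM with CoCl2, 2.16-fold (log2 1.11, SE 0.08, FDR = 1.05e-11). With OD it held 130.4, 112.7 and 107.0 CPM, overlapping control, and the 95% interval of the log2 difference was -0.15 to 0.16 (FDR = 0.969). In HT-29 NQO1 rose from 305.6, 316.5 and 331.6 CPM to 939.7, 942.5 and 1005 CPM with CoCl2, 3.03-fold (log2 1.60, SE 0.05, FDR = 2.02e-21). OD libraries held 524.3, 495.4 and 494.4 CPM there, all above control, at a log2 difference of 0.67 (SE 0.05, FDR = 9.46e-13). With library size as the only scaling, NQO1 was not called with CoCl2 in either line (log2 0.79 and 0.96). A long noncoding RNA gene on the opposite strand shares 19.4% of the exonic bases of NQO1, and its part in the counts was not tested.

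OSGIN1 (ENSG00000140961, chr16:83931311-83966332) had the largest fitted log2 fold change among the 9 members other than SRXN1 in each of the 4 comparisons with control. SRXN1 has no place in this ranking, since it was not tested in Caco-2 and entered the HT-29 fit only through its CoCl2 libraries. The gene rose in Caco-2 from 12.1, 16.9 and 15.2 CPM to 139.7, 115.5 and 121.5 CPM with CoCl2, 8.56-fold (log2 3.10, SE 0.11, FDR = 3.01e-17). It rose to 29.9, 35.5 and 36.8 CPM with OD, 2.32-fold (log2 1.22, SE 0.12, FDR = 6.13e-09), and was the one member called in that comparison. In HT-29 OSGIN1 went from 7.87, 8.64 and 8.56 CPM to 325.9, 314.8 and 303.7 CPM with CoCl2, a 37.5-fold rise (log2 5.23, SE 0.06, FDR = 4.45e-29), which ranked 46 of 15812 genes. With OD it rose to 86.9, 83.2 and 80.8 CPM, 9.95-fold (log2 3.32, SE 0.07, FDR = 1.02e-23), rank 83. On the deposited log2 RPKM values the OD change in Caco-2 was 0.94 and was not called. Another protein-coding gene on the same strand shares 8.22% of the exonic bases of OSGIN1, and its part in the counts was not tested.

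**Figure D3:**
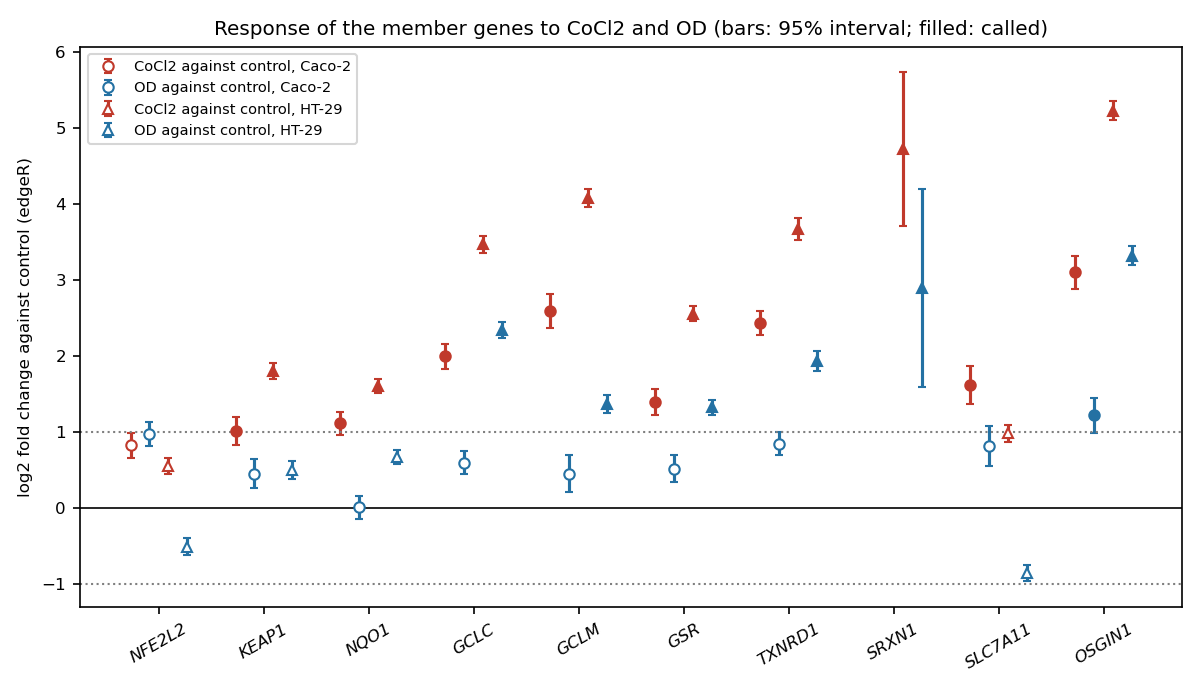
Log2 fold change against control (vertical axis) of each member for CoCl2 (red) and OD (blue) in Caco-2 (circles) and HT-29 (triangles), with 95% intervals. Filled symbols are called and dotted lines mark the fold limit of 1. SRXN1 entered the HT-29 fit only through its CoCl2 libraries, so its filled symbols are not read as test results. The red symbols lie above the blue ones in every pair shown except NFE2L2 in Caco-2, and the blue triangles of NFE2L2 and SLC7A11 lie below 0, at -0.51 and -0.86.

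CoCl2 and OD were then compared directly, at the single dose of each. In Caco-2, 5 of 9 members were called higher with CoCl2 than with OD, against a background of 5.21% of genes, namely GCLM (4.43-fold), OSGIN1 (3.69-fold), TXNRD1 (3.00-fold), GCLC (2.64-fold) and NQO1 (2.15-fold). The FDR threshold alone was passed by 8 members (49.6% of genes). GSR, SLC7A11 and KEAP1 differed by 0.87, 0.81 and 0.56 on the log2 scale, below the fold limit, and GSR reached 1.02 without OD replicate 1. For NFE2L2 the CoCl2 and OD libraries of Caco-2 overlapped, with a difference of -0.15 and a 95% interval of -0.31 to 0.01 (FDR = 0.127). In HT-29, 8 of the 9 members other than SRXN1 were called higher with CoCl2, against 10.8% of genes, by 2.09-fold for NFE2L2 up to 6.55-fold for GCLM. The NFE2L2 call was lost on the deposited log2 RPKM values (log2 0.98) and in a fit of all 18 libraries (0.97). NQO1 was 1.91-fold higher and was not called. With library size as the only scaling, NQO1 in Caco-2 was at 0.94 and not called, and calls were also lost in HT-29, where NFE2L2, KEAP1, GCLC and GSR went to log2 differences of 0.57, 0.81, 0.63 and 0.74 while the median of all genes moved by -0.50.

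Responses were compared between the lines by an interaction over all 18 libraries, as the log2 fold change in HT-29 minus that in Caco-2. For CoCl2, 5 of the 9 members other than SRXN1 were called with the stronger response in HT-29 (background 7.79%), OSGIN1 (2.02, SE 0.14), GCLC (1.37, SE 0.10), GCLM (1.37, SE 0.12), TXNRD1 (1.13, SE 0.12) and GSR (1.06, SE 0.11). With library size as the only scaling, TXNRD1 (0.93) and GSR (0.855) were not called. For OD, OSGIN1 (2.08, SE 0.14), GCLC (1.74, SE 0.10) and TXNRD1 (1.08, SE 0.12) were called with the stronger response in HT-29 (background 8.96%), and TXNRD1 was at 0.98 and not called without HT-29 control replicate 1. SLC7A11 (-1.69, SE 0.15, FDR = 2.89e-11) and NFE2L2 (-1.50, SE 0.11, FDR = 1.71e-13) were called in the other direction (background 6.24%), being above control with OD in Caco-2 and below control in HT-29. At any size, all of these 9 members passed the FDR threshold for CoCl2 (49.8% of genes) and 8 for OD (42.9%). For KEAP1 the OD responses differed by 0.03, with a 95% interval of -0.20 to 0.26 (FDR = 0.885). SRXN1 had interaction values of 2.63 (SE 1.23) for CoCl2 and 2.64 (SE 1.34) for OD, from the few counts given above.

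**Figure D4:**
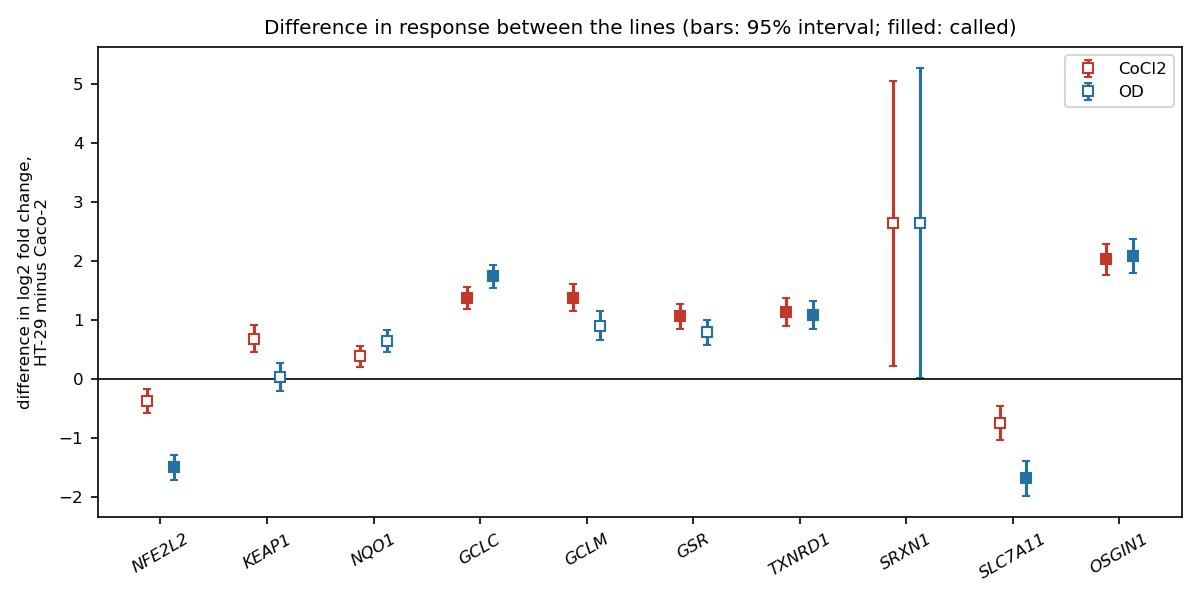
Difference in log2 fold change, HT-29 minus Caco-2 (vertical axis), of each member for CoCl2 (red) and OD (blue), with 95% intervals; filled symbols are called. OSGIN1 lies at 2.02 and 2.08, while NFE2L2 and SLC7A11 lie below 0 for both agents and at -1.50 and -1.69 for OD.

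The untreated lines were compared as well. On a scaling common to all 18 libraries, 5 of the 9 members other than SRXN1 were called higher in HT-29 control than in Caco-2 control, against 21.6% of 17921 genes. SLC7A11 stood at 404.7, 439.0 and 480.4 CPM in HT-29 and at 18.2, 15.1 and 18.9 CPM in Caco-2, a 25.4-fold difference (log2 4.66, SE 0.11, FDR = 5.27e-28). TXNRD1 (log2 1.89), GCLM (1.85), NFE2L2 (1.61) and NQO1 (1.54) were the others called. GCLC was also higher in HT-29, by 0.64 on the log2 scale, while GSR and OSGIN1 were lower, at -0.89 and -0.71, all under the fold limit. At any fold, 8 members passed the FDR threshold (79.1% of genes). KEAP1 overlapped between the lines, with a difference of -0.08 (95% interval -0.25 to 0.08, FDR = 0.37), and SRXN1 overlapped as well.

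Levels between genes were compared only per length, on the deposited log2(RPKM + 1) values, which hold 9 of the 10 members (not SRXN1) and were scaled within each line. In Caco-2 control the order of levels was NQO1 (5.36), GSR (4.78), TXNRD1 (4.16), NFE2L2 (4.03), KEAP1 (3.70), GCLC (2.64), OSGIN1 (1.88), SLC7A11 (1.52) and GCLM (1.41). SLC7A11 (1.39 to 1.60 over libraries) and GCLM (1.35 to 1.46) overlapped, and the other neighbours did not. In HT-29 control, NQO1 (6.80) was again first and OSGIN1 (1.35) last, and SLC7A11 (5.52) and NFE2L2 (5.50) overlapped. With CoCl2, TXNRD1 was the highest member in HT-29 at 9.47 ± 0.02 (SD, n = 3), above NQO1 at 8.30 ± 0.06, and KEAP1 was the lowest at 5.17 ± 0.07. With OD, TXNRD1 (7.81) was also above NQO1 (7.44) in HT-29, whereas in Caco-2 NQO1 (5.32 ± 0.14), GSR (5.23 ± 0.22) and TXNRD1 (4.93 ± 0.15) led, followed by NFE2L2 (4.92 ± 0.14), and the libraries of each overlapped those of the next.

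Other genes of the pathway were examined in 4 lists. Of 11 genes that control NRF2, 5 were called higher in Caco-2 after CoCl2 and 3 after OD, and 7 and 3 in HT-29, where NFE2L3, a relative of NRF2, fell with CoCl2 (log2 -1.34). The backgrounds for higher calls were 9.13% of genes in Caco-2 for CoCl2 and 4.43% for OD, then 17.4% and 9.5% in HT-29. Those for lower calls were 14.2% of genes in Caco-2 for CoCl2 and 7.27% for OD, then 23.9% and 7.57% in HT-29. The list medians were 0.89, 0.65, 1.08 and 0.32, beside medians of all genes of -0.03, -0.02, -0.03 and 0.01. SQSTM1, an autophagy receptor that can draw KEAP1 away from NRF2, rose with CoCl2 by 2.40 on the log2 scale (SE 0.08) in Caco-2 and by 4.92 (SE 0.05) in HT-29, and with OD by 2.72 (SE 0.04) in HT-29, while OD in Caco-2 gave 0.65. The small MAF partners MAFF and MAFG rose in Caco-2 by 3.97 and 2.04 with CoCl2 and by 2.48 and 1.11 with OD. In HT-29 they rose by 2.24 and 2.98 with CoCl2, and MAFG rose by 1.30 with OD while MAFF stood at 0.79. NFE2L1, another relative of NRF2, rose with OD in both lines, by 1.18 in Caco-2 and 1.12 in HT-29. Its CoCl2 value was 1.08 in Caco-2, also called, whereas HT-29 had 0.99, not called.

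The longest list held 24 other NRF2 targets. With CoCl2 in Caco-2, 13 of 23 tested rose (9.13% of all genes) and 1 fell (14.2%), at a median of 1.13. In HT-29, 22 of 24 rose (17.4% of all genes) and 1 fell (23.9%), at a median of 2.41. These counts include CBR3 in HT-29 (1, 0 and 3 counts in control, 11, 19 and 18 with CoCl2). They also include AKR1B10 in Caco-2 (9, 6 and 5 counts in control, 16, 18 and 19 with CoCl2). Both passed the filter on low counts there through their CoCl2 libraries, so these calls were not independent of their levels. With OD, 1 of 23 rose in Caco-2 (4.43% of all genes, median 0.27) and 15 of 24 in HT-29 (9.5%, median 1.30). The Caco-2 count with OD is near the background share. HMOX1, the heme-degrading enzyme, had the largest values, with log2 fold changes of 5.11 (SE 0.10) in Caco-2 and 8.77 (SE 0.07) in HT-29 with CoCl2. OD gave 1.36 for HMOX1 in HT-29 and 0.45, not called, in Caco-2. PIR, an iron-binding nuclear protein, rose in Caco-2 with both agents (2.87 and 1.19), and FTL, the ferritin light chain, rose there with CoCl2 (1.93). The aldo-keto reductases AKR1C1 and AKR1C2 have near-identical sequences that can exchange reads. In HT-29 they rose by 5.29 and 5.10 with CoCl2 and by 4.73 and 4.18 with OD. In Caco-2 they rose by 1.25 and 1.77 with CoCl2, and were at 0.02 and 0.35 with OD, not called. AKR1B10 rose in HT-29 by 3.49 with CoCl2 and by 2.84 with OD. ABCC2, an exporter of glutathione conjugates, rose with CoCl2 by 5.96 in HT-29 and by 1.50 in Caco-2. With OD it rose by 2.325 in HT-29 and was at 0.27, not called, in Caco-2. The target called lower with CoCl2 was ABCC3, another exporter, in both lines (-1.62 and -1.56).

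The remaining glutathione and thioredoxin genes were counted against the shares of all genes called. Of 16 glutathione genes tested in Caco-2, 2 rose with CoCl2 (9.13% of all genes) and 5 fell (14.2%), and 1 rose with OD (4.43%). In HT-29, 5 rose with CoCl2 (17.4% of all genes) and 3 fell (23.9%), while 1 rose (9.5%) and 1 fell (7.57%) with OD. These are counts of 1 to 5 genes, several of them near the background. List medians stayed near 0, at -0.04, -0.05, 0.04 and -0.02. Those that rose included GLRX, a glutaredoxin, with CoCl2 in both lines (1.89 and 3.03) and with OD in HT-29 (1.25). SLC3A2, the heavy-chain partner of SLC7A11, rose with CoCl2 in Caco-2 (1.10) and HT-29 (1.18). The microsomal transferase MGST1 rose with CoCl2 in HT-29 (2.07) and was at 0.46, not called, in Caco-2. Those that fell included OPLAH, which opens 5-oxoproline, with CoCl2 in Caco-2 (-1.57) and HT-29 (-1.47). Genes that break glutathione down also fell, CHAC1 with CoCl2 in HT-29 (-1.78) and Caco-2 (-1.27). CHAC2 fell in HT-29 with OD (-1.25) and in Caco-2 with CoCl2 (-1.68). CHAC1 rose in Caco-2 with OD (1.04). Of 12 thioredoxin genes, TXNL1 rose with CoCl2 in Caco-2 (1.34), and the OD values there ran from -0.46 to 0.73, all under the fold limit. In HT-29, 3 rose with CoCl2, namely TXNL1 (1.97), TXN (1.84) and PRDX1 (1.81), 1 fell, and TXN rose with OD (1.18). The list medians were -0.21, 0.05, 0.14 and -0.11.

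**Figure D5:**
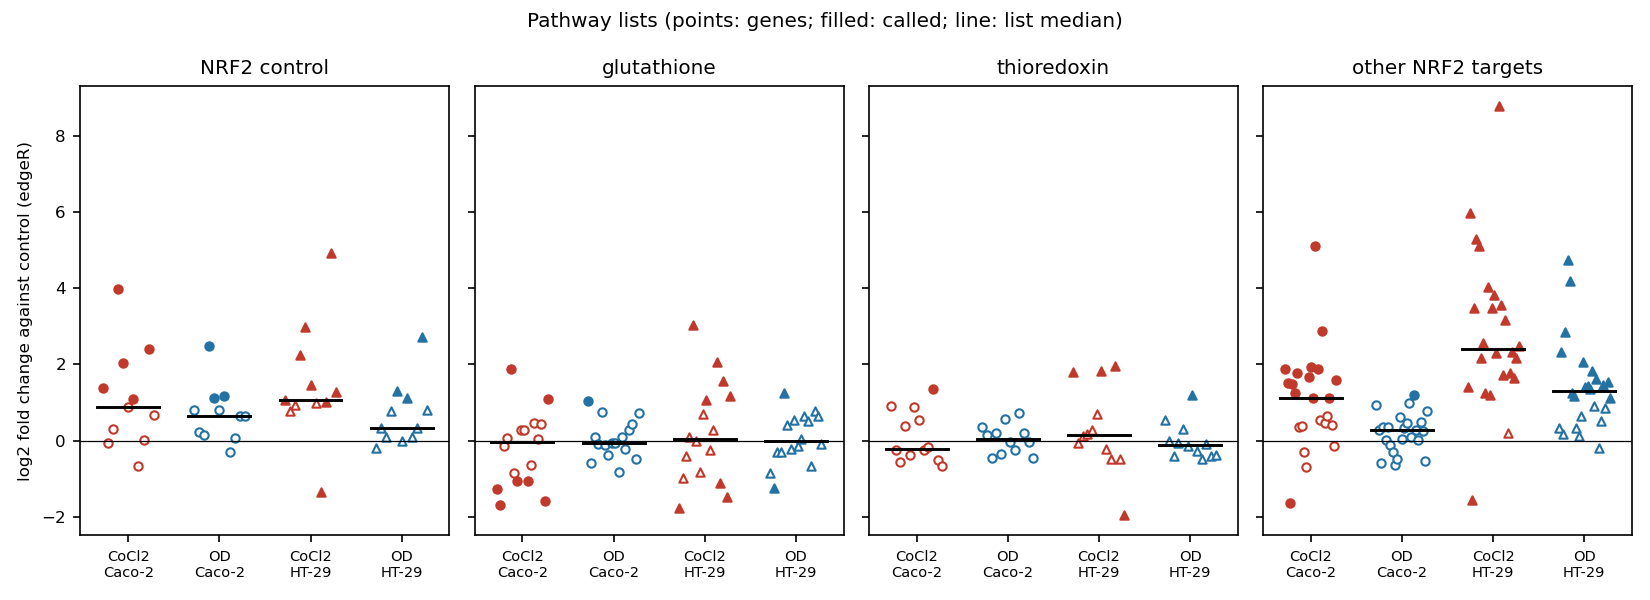
Log2 fold changes against control (vertical axis) of the genes in 4 pathway lists for CoCl2 (red) and OD (blue) in Caco-2 (circles) and HT-29 (triangles); filled symbols are called and black lines are list medians. The medians of the other NRF2 targets are 1.13, 0.27, 2.41 and 1.30, and those of the glutathione list lie between -0.05 and 0.04. CBR3 in HT-29 and AKR1B10 in Caco-2 passed the filter through their CoCl2 libraries, so their filled symbols are not read as test results.

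Among 13943 genes tested in both lines, the genes nearest to the median profile of the 7 target members tested in both (1.99, 0.59, 3.47 and 1.36 on the log2 scale) were MIR22HG, AC087521.2, UNKL, KLHL21 and GLRX, with root mean square differences of 0.162 to 0.249 over the 4 comparisons. TXNRD1 (0.395), GCLM (0.432) and GCLC (0.492) were the closest members, and SLC7A11 (1.68) and OSGIN1 (1.46) the most distant targets. These targets themselves set the median profile, so their distances are not independent of it. Of the 5 nearest genes, 1 (GLRX) was in a pathway list.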

How the data were processed

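Messenger RNA of 18 libraries was used, and 18 miRNA libraries of the series were not used here. The deposited mRNA table holds unnormalised counts of reads for each gene. Per the submitters' notes and the study's methods, reads were trimmed with cutadapt 2.10 and aligned with STAR 2.7.5b to GRCh38.p13 with GENCODE release 34, while the counting tool and its use of strand are not given in the sources used here. A second table deposited by the authors holds log2 of RPKM plus 1, scaled within each line, and served for levels between genes and as an alternative. No per-sample column was left without a sample.

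Groups came from the sample labels. Counts were tested with edgeR 4.0.16 in R 4.3.3 (TMM, filterByExpr, quasi-likelihood F test, two-sided, 1 coefficient per group), each line over its 9 libraries. Interactions and the comparison of untreated lines used all 18. The FDR is the Benjamini-Hochberg value over all genes tested, and a gene was called at FDR under 0.05 and absolute log2 fold change over 1. Totals were 12925719 to 22332639 counts per library, and the median SE of a log2 fold change against control was 0.0855 to 0.127. Within-library ratios used a pseudocount of 0.5. Alternatives were DESeq2 1.42.0 (the study's tool), limma 3.58.1 on the log2 table, other scalings, filters and thresholds, a replicate block and leaving out libraries. Replicates of a group differed by more than counting noise (chi-square per degree of freedom 1.96 to 12.6).

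The members, lists and tests were chosen with earlier results of these data known. The text names all 10 members, up to 3 called genes per list and comparison with the largest change and a mean count of at least 50, and the 5 nearest profiles; the remaining genes named (ABCC3, NFE2L3, HNRNPA3, SLC7A11-AS1, marker genes and single values beside a named gene) were chosen after their values were seen. Coordinates are those of GENCODE release 44, and promoters those of RefSeq on GRCh38.p14.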

Additional observations from a re-analysis of the deposited data

Results flagged for a closer look

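The responses to CoCl2 differed between HT-29 and Caco-2 for the 9 members other than SRXN1 by the interaction test (edgeR, FDR under 0.05 over all genes, any size; 49.8% of all genes passed this). The differences in log2 fold change, HT-29 minus Caco-2, were 2.02 for OSGIN1, 1.37 for GCLC, 1.37 for GCLM, 1.13 for TXNRD1, 1.06 for GSR, 0.68 for KEAP1, 0.38 for NQO1, -0.38 for NFE2L2 (FDR = 0.00332) and -0.75 for SLC7A11 (FDR = 5.24e-05). In fold terms the targets other than SLC7A11 and SRXN1 responded more in HT-29, and SLC7A11 and NFE2L2 responded more in Caco-2. SLC7A11 and NFE2L2 stood higher in HT-29 control than in Caco-2 control (log2 4.66 and 1.61). The median of all genes was -0.13. Over the alternative settings and left-out libraries NQO1 ranged from 0.175 to 0.485, with an FDR of up to 0.0775. Its difference thus did not pass the threshold in every setting.

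For OD, 8 members differed between the lines, where 42.9% of all genes did. The differences were 2.08 for OSGIN1, 1.74 for GCLC, 1.08 for TXNRD1, 0.90 for GCLM, 0.79 for GSR, 0.65 for NQO1 (FDR = 9.08e-07), -1.50 for NFE2L2 and -1.69 for SLC7A11. Cell line and culture state cannot be told apart in these differences.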

How the results depend on the processing

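With library size as the only scaling, the centre of all genes (median log2 value) moved by -0.32 (CoCl2, Caco-2), -0.15 (OD, Caco-2), -0.63 (CoCl2, HT-29) and -0.14 (OD, HT-29), for CoCl2 against OD by -0.17 (Caco-2) and -0.50 (HT-29), and by -0.20 for the line difference with CoCl2. Calls over all genes then went, in higher and lower genes, from 1464 and 2283 to 870 and 3546 (CoCl2, Caco-2), from 711 and 1165 to 500 and 1644 (OD, Caco-2), from 2749 and 3775 to 1295 and 6250 (CoCl2, HT-29), from 1502 and 1197 to 1225 and 1596 (OD, HT-29), from 835 and 1033 to 602 and 1524 and from 1702 and 3032 to 783 and 5279 (CoCl2 against OD, Caco-2 and HT-29), and from 1396 and 2479 to 1005 and 3319 (line difference, CoCl2). Under this scaling NFE2L2 with CoCl2 in HT-29 was at -0.08 and NQO1 with OD in Caco-2 at -0.152, and the members called fell to 5 for CoCl2 against OD in HT-29 and to 3 for the line difference with CoCl2. Of 87 member values, 75 kept their direction and side of the threshold under it, 87 with DESeq2's size factors, 86 with the DESeq2 test, 86 without a filter, and 50 of 54 with limma on log2 RPKM, where NQO1 with OD in Caco-2 was at -0.035. The members called with OD in Caco-2 were 2 without a filter and 0 with limma, and 1 in the main fit (4.43% of all genes called higher there). Shares of all genes without a filter and with limma were not determined. At any fold change, the members called were 8 for OD in Caco-2 (50.4% of all genes) and 8 for CoCl2 against OD in Caco-2 (49.6%). For OD in HT-29, all 9 members other than SRXN1 passed (68.8% of all genes). The line differences had 9 for CoCl2 (49.8%) and 8 for OD (42.9%), and the untreated lines had 8 (79.1%).

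Leaving out 1 library at a time gave 7 to 8 members called for CoCl2 in Caco-2, 1 to 2 for OD in Caco-2, 8 to 9 for CoCl2 in HT-29, 6 in every case for OD in HT-29, 5 to 6 for CoCl2 against OD in Caco-2, 9 in HT-29, 5 to 6 and 4 to 6 for the line differences with CoCl2 and OD, and 5 for the untreated lines. NQO1 with OD in Caco-2 ranged from -0.082 (without OD replicate 1) to 0.069, and the line difference of KEAP1 with OD from -0.06 (without Caco-2 OD replicate 1) to 0.14, neither passing the FDR threshold. Same-numbered libraries did not deviate together (correlations of -0.184 to 0.189, with 2 of 18 over 0.1), so the replicate numbers were not treated as pairs. The replicate block gave the same counts of members called in every comparison (Caco-2 had 8, 1 and 5, HT-29 had 8, 6 and 9, with 5 and 5 for the line differences and 5 for the untreated lines), and set NQO1 with OD in Caco-2 to 0. The causes of these changes were not tested. Unless stated otherwise, counts of members called in HT-29 and between the lines under this heading are over 10 members, with SRXN1 included. SRXN1 held at most 25 counts in a library and entered the HT-29 fit only through its CoCl2 libraries, so its calls are not read as test results. Without SRXN1 the main HT-29 counts were 7 for CoCl2, 5 for OD and 8 for CoCl2 against OD.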
